A study of Mus musculus with 14 samples.

Results

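The abundant transcripts of the mouse carotid artery were taken as the entries of the expression table whose mean level over the 3 wild-type DMSO libraries lay from 500 to 5000 TPM. TPM is a transcript's share of a library after division by its length, scaled to a fixed total per library, so levels of different transcripts can be compared. This rule was met by 89 of 63244 transcripts (0.141%). Because the wild-type DMSO levels chose these 89 transcripts, comparisons that use those libraries are described below by fold changes, with no test. None of the 89 belonged to the 8 transcripts with a mean over all 14 libraries above 5000 TPM, called the dominant transcripts below.

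RNA was sequenced from carotid arteries of male mice of the strain C57BL/6J, either wild type (WT) or with Rbp7 knocked out (KO). Both genotypes received rosiglitazone, 10 µM for 24 h, or its vehicle DMSO. There were 3 WT DMSO, 3 WT rosiglitazone, 4 KO DMSO and 4 KO rosiglitazone libraries. One label says that removed arteries were treated and another that mice were treated. The sources used here do not give the ages of the mice, the way the knockout was made or whether libraries came from separate animals. The p-values therefore measure only the spread between libraries, which may in part be technical.

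Rbp7 encodes retinol-binding protein 7, a cytosolic retinoid carrier and a target of PPARγ in endothelial cells. Rosiglitazone is a thiazolidinedione that activates PPARγ, a nuclear receptor that controls lipid and glucose metabolism and also acts in the vessel wall. The wall of a large artery holds smooth muscle cells, fibroblasts and endothelial cells, and in RNA from such tissue a small number of transcripts commonly takes a large part of all reads. Such transcripts set the scale for all others when levels are given as shares.

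The table names transcripts by UCSC-style identifiers, and 0 of the 63244 identifiers matched the reference gene tables used here. The 89 transcripts are therefore named by identifier, with no gene, function, position or sequence. For the same reason neither the arterial origin of the RNA nor the loss of Rbp7 in the libraries labelled KO was checked against marker levels. The read depth cannot be recovered from TPM and is unknown, so no counting interval is given. In bulk tissue fewer cells of a type and less RNA per cell cannot be told apart.

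The libraries carry sample numbers, 6 to 11 in WT, 2 to 5 in the KO libraries of replicates 1 and 2, and 18 to 21 in the KO libraries of replicates 3 and 4. Numbers 2 to 11 run without a break and hold both genotypes, whereas 18 to 21 hold KO alone. Within 2 to 11 all KO numbers come before all WT numbers, so genotype and number order cannot be told apart there. Without numbers 18 to 21 the genotype comparison is that of KO 2 to 5 with WT 6 to 11. The KO DMSO and KO rosiglitazone libraries of replicate 4 stood apart from the other 12. The dominant transcripts held 43.2% and 46.0% of these libraries, and 49.1% to 55.0% of the others. Some results that rest on these libraries are also given without them or without single libraries.

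The 89 abundant transcripts held a similar share of every library, whatever the genotype and treatment. The share was 10.83%, 10.83% and 10.87% in the WT DMSO libraries that chose them. It was 11.15%, 10.58% and 11.07% in WT rosiglitazone, 11.53%, 10.78%, 10.12% and 11.37% in KO DMSO, and 10.53%, 11.91%, 10.46% and 11.12% in KO rosiglitazone. The group means were 10.8% ± 0.021 (SD, n = 3) in WT DMSO, 10.9% ± 0.31 (SD, n = 3) in WT rosiglitazone, 10.9% ± 0.64 (SD, n = 4) in KO DMSO and 11.0% ± 0.67 (SD, n = 4) in KO rosiglitazone. The 3 groups that did not choose the transcripts overlapped, and their means differed by less than the SD within any of them. The 35 transcripts at 1000 TPM or more in WT DMSO made up 7.00% of those libraries, and the other 54 the remainder.

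**Figure D1:**
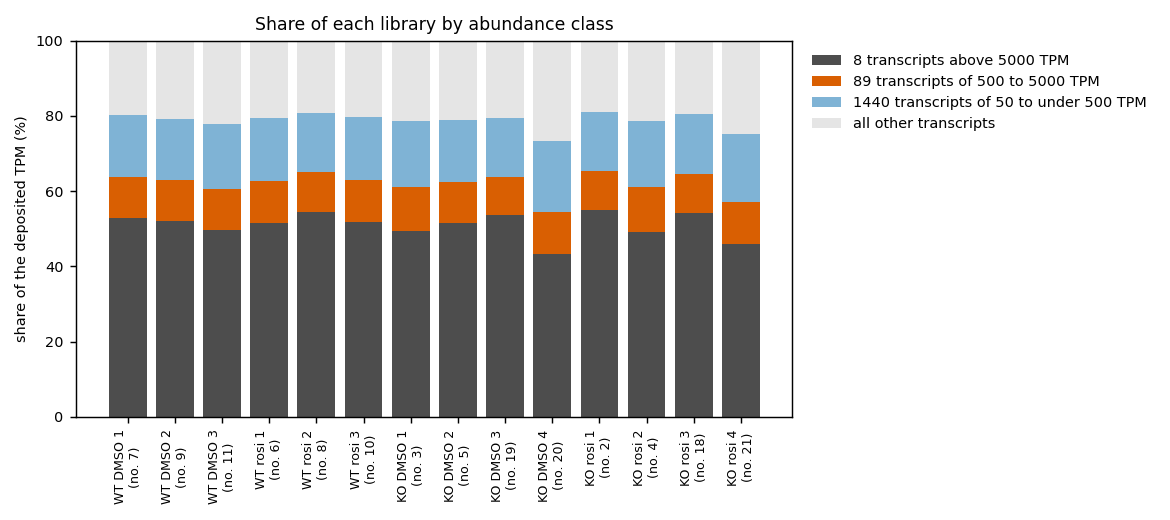
Share of each of the 14 libraries (percent of all TPM) held by the 8 dominant transcripts, the 89 abundant transcripts, the 1440 transcripts from 50 to under 500 TPM in WT DMSO, and all others, as stacked bars grouped by genotype and treatment. The segment of the 89 transcripts stays between 10.12% and 11.91%, while that of the dominant transcripts falls to 43.2% in the KO DMSO library of replicate 4.

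The dominant transcripts varied more in absolute terms than the 89 did, and they move every other share with them. The table was therefore rescaled: the dominant transcripts were left out and each library was brought back to the same total. This multiplied the remaining values by 1.76 to 2.22, depending on the library. After rescaling, the 89 transcripts held 22.4% ± 0.73 (SD, n = 3) of WT DMSO, 23.1% ± 0.19 (SD, n = 3) of WT rosiglitazone, 21.7% ± 1.21 (SD, n = 4) of KO DMSO and 22.55% ± 1.33 (SD, n = 4) of KO rosiglitazone libraries. The lowest rescaled shares were those of the replicate 4 libraries, 20.03% in KO DMSO and 20.59% in KO rosiglitazone, and the other 12 libraries lay from 21.62% to 23.39%. The KO DMSO library of replicate 4 also held the lowest rescaled value of 29 of the 89 transcripts. Rescaling raised this library least, by 0.816 on the log2 scale against a median of 1.05 over the libraries. In the deposited TPM it was the lowest library for fewer of the 89, so the count depends on the scale. The matching share of all tested transcripts was not computed.

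None of the 89 transcripts was listed at 0 in any library, and the lowest single value was 44.5 TPM. Their median level in WT DMSO was 854 TPM. In every one of the 14 libraries 63 of them stayed between 500 and 5000 TPM. Of the other 26, 23 were below 500 TPM in at least 1 library and 3 above 5000 TPM in at least 1.

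The highest of the 89 was uc009vez.1. Its level was 4867, 5099 and 4510 TPM in WT DMSO, 5053, 5699 and 4763 in WT rosiglitazone, 4800, 5118, 4595 and 3726 in KO DMSO, and 5188, 5310, 4662 and 4005 in KO rosiglitazone. The next, uc009vfc.1, had 3929, 4447 and 3934 TPM in WT DMSO, 4408, 4937 and 4019 in WT rosiglitazone, 4007, 4394, 4282 and 2834 in KO DMSO, and 4580, 4387, 3994 and 3222 in KO rosiglitazone. Both had their lowest deposited value in the KO DMSO library of replicate 4 and their highest in the WT rosiglitazone library of replicate 2, and all 4 groups overlapped.

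At the other end stood uc009bhk.1, with a WT DMSO mean of 509.7 TPM, and uc012acf.1, with 504.0 TPM. The level of uc012acf.1 was 491.4, 675.1 and 345.5 TPM in WT DMSO, 534.2, 635.6 and 394.5 in WT rosiglitazone, 456.9, 557.8, 369.5 and 418.7 in KO DMSO, and 528.6, 726.3, 325.4 and 460.1 in KO rosiglitazone. Its libraries lay on both sides of 500 TPM in all 4 groups. The transcripts just outside the rule were uc009vfb.1 (6885 TPM) and uc009vew.1 (7021 TPM) above, and uc007ake.2 (491.7 TPM) and uc008ziq.3 (491.4 TPM) below, against 4825 TPM for uc009vez.1 and 4103 TPM for uc009vfc.1 just inside.

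**Figure D2:**
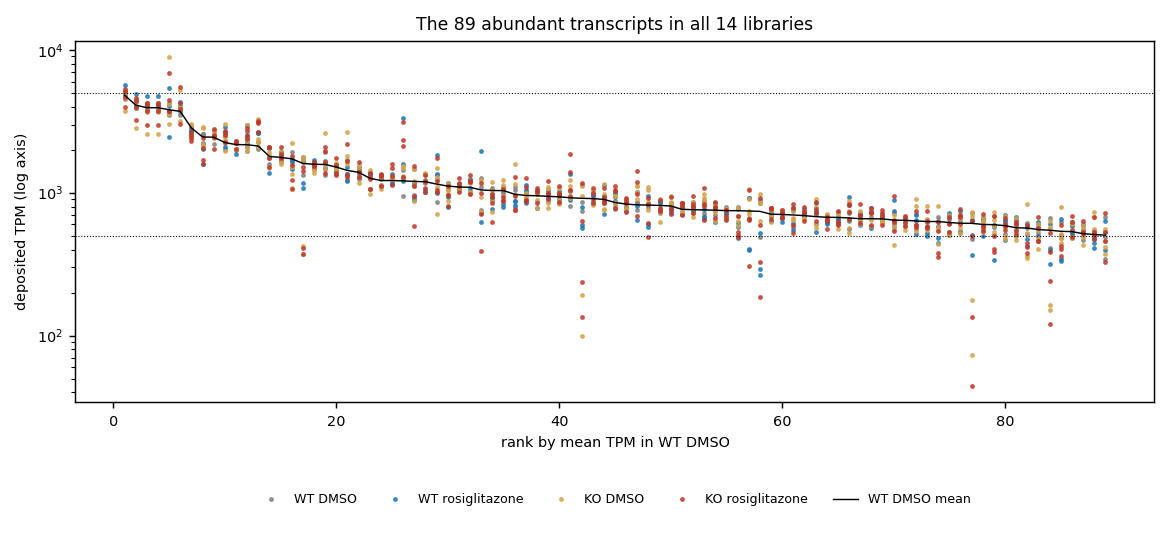
Deposited TPM (log axis) of each of the 89 transcripts, ranked by WT DMSO mean, with 1 point per library coloured by group, a line at the WT DMSO mean and dotted lines at 500 and 5000 TPM. Most transcripts keep a narrow column of points, and a few columns reach far down, the lowest to 44.5 TPM.

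Several of the abundant transcripts sit beside dominant ones in the table. The identifiers from uc009vev.1 to uc009vfc.1 form an unbroken stretch of 8 entries, of which 4 are dominant and 4 are among the 89: uc009vex.2, uc009vez.1, uc009vfa.1 and uc009vfc.1. The 4 abundant ones made up 1.11% to 1.84% of a library and their 4 dominant neighbours 20.8% to 31.1%, both lowest in the KO DMSO library of replicate 4. Rescaled log2 levels of the 4 correlated with each other over the 14 libraries with Pearson's r from 0.74 to 0.993, a description of levels that share libraries and neighbouring entries. The profile most like that of uc009vez.1 was shared by uc007ams.1 and uc009vfa.1 (r = 0.990 over 14 libraries), followed by uc009vfc.1 (r = 0.983). Both uc007ams.1 and uc009vfa.1 carry the same value in every library and are not independent measurements. Whether they repeat a single value or divide a signal between them was not tested. Also uc012hdm.1, among the 89, stands next to the dominant uc012hdk.1.

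The abundant transcripts were steadier between libraries of a group than the typical tested transcript, and about as steady as the next lower band of abundance. Over the 3 groups the rule did not use, the SD of rescaled log2 values pooled within groups had a median of 0.19 over the 89, with a range of 0.069 to 1.48. The median was 0.19 over the 1440 transcripts from 50 to under 500 TPM in WT DMSO and 0.36 over all 34024 tested transcripts. A pooled SD above 0.5 was found for 7 of the 89 (7.87%), for 10.1% of the next band and for 32.7% of all tested transcripts. These spreads hold counting error and any difference between arteries together, since depth is unknown.

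In the deposited TPM the median coefficient of variation over the 89, the SD as a percentage of the mean, was 8.62% in WT DMSO (n = 3), 11.4% in WT rosiglitazone (n = 3), 13.3% in KO DMSO (n = 4) and 12.7% in KO rosiglitazone (n = 4). The next band had 8.75%, 11.98%, 12.8% and 15.5% in the same groups. Without its replicate 4 library the KO DMSO value was 11.7%. The WT DMSO value was 4.94% when its replicate 2 library was left out, and the WT rosiglitazone value was 7.66% without its replicate 2 library. With 3 or 4 libraries a group, these medians therefore depend on single libraries. They also depend on the scale. After rescaling the medians over the 89 were 10.2%, 11.65%, 12.2% and 11.5% in the same order of groups. Those of the next band were 8.42%, 11.8%, 11.3% and 13.5%.

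Between its highest and lowest library, the rescaled level of a member differed 1.54-fold at the median. The ratio was under 1.5 for 41 of the 89, from 1.5 to under 2 for 26 and at least 2 for 22, of which 6 reached at least 4. The steadiest member by pooled SD was uc008oey.1 (0.069). Its level was 714, 731 and 800 TPM in WT DMSO, 666, 655 and 718 in WT rosiglitazone, 764, 752, 666 and 763 in KO DMSO, and 647, 760, 684 and 758 in KO rosiglitazone. All 4 groups of uc008oey.1 overlapped, and no library left the range from 647 to 800 TPM. Next was uc008tme.1 (0.090), which stayed between 598 and 754 TPM in all 14 libraries.

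The most variable members were uc009avm.1 (pooled SD 1.48) and uc008yki.2 (1.40), followed by uc007izh.3 (1.04) and uc007awq.2 (0.93), all described with the sample numbers below. Apart from these 4, the pooled SD was above 0.5 for uc007hda.1 (0.71), uc008qxx.2 (0.61) and uc007cws.1 (0.59). The level of uc008qxx.2 ran from 388 TPM in the KO rosiglitazone library of replicate 3 to 1952 TPM in the WT rosiglitazone library of replicate 3. That of uc007cws.1 ran from 307 TPM in the KO rosiglitazone library of replicate 2 to 1068 TPM in the KO DMSO library of replicate 3. Both varied widely within single groups.

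To follow the drug in arteries without Rbp7, KO rosiglitazone was compared with KO DMSO, neither of which chose the transcripts. No abundant transcript passed limma's test on the rescaled log2 values (0 of 89 at an adjusted p under 0.05, against 6 of 34024 tested transcripts, 0.0176%). At an unadjusted p under 0.05 there were 3 of the 89 (3.37%), against 5.04% of all tested. Fold changes ran from -0.88 to 0.63 on the log2 scale, with a median of 0.10 against -0.06 over all tested transcripts. The 89 lay higher with the drug in 58 cases and lower in 31, while 40.1% of all tested transcripts lay higher. This split was 54 to 35 in the deposited TPM, 65 to 24 with median-of-ratios scaling and 51 to 37 with quantile normalization.

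The data bound the size of most of these differences. The 95% interval of 82 of the 89 lay within a 2-fold change either way, and the absolute log2 fold change was under 0.25 for 76 of them (85.4%), against 61.9% of all tested transcripts. The median standard error over the 89 was 0.12.

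The smallest p among the 89 was that of uc008got.2, whose level was higher with rosiglitazone. The KO DMSO libraries stood at 2256, 2091, 2392 and 3259 TPM, the KO rosiglitazone libraries at 2660, 3135, 3085 and 3196 TPM. After rescaling, the highest KO DMSO library stood at 5738 and the lowest KO rosiglitazone library at 5906, so these groups did not overlap, whereas in the deposited TPM they did through the KO DMSO library of replicate 4. The log2 fold change was 0.34 ± 0.10 (SE), with limma's adjusted p = 0.866, and 0.43 without both replicate 4 libraries (adjusted p = 0.629). On rescaled values no other of the 89 had all 4 rosiglitazone libraries above all 4 DMSO libraries in KO (0.896% of all tested did), and none had all 4 below (1.63% of all tested). In the deposited TPM 0 of the 89 were above (0.547% of all tested) and 0 below (1.53%).

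In WT the level of uc008got.2 was 2274, 2017 and 2072 TPM with DMSO and 2600, 2617 and 2657 TPM with rosiglitazone, a log2 difference of 0.34. Replicates with the same number were higher with the drug in 3 of 3 WT cases. In KO this held in 4 of 4 cases on rescaled values and in 3 of 4 in the deposited TPM, where replicate 4 was the exception. The WT comparison uses libraries that chose the transcript, so it is given as a description.

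A larger but more scattered difference was seen for uc029rzf.1. In KO its level was 1295, 1490, 1314 and 1530 TPM with DMSO and 1285, 3130, 2344 and 2108 TPM with rosiglitazone. In the deposited TPM the first rosiglitazone library lay below all DMSO libraries and the other 3 lay above them. After rescaling the first stood at 2854, within the KO DMSO range of 2562 to 3080. Replicates with the same number were higher with the drug in 4 of 4 KO cases on rescaled values and in 3 in the deposited TPM. The log2 fold change was 0.63 ± 0.29 (SE), with limma's adjusted p = 0.934. In WT this transcript had 1445, 943.1 and 1241 TPM with DMSO and 3312, 1578 and 1201 TPM with rosiglitazone, a log2 difference of 0.66 that was 0.26 without the WT rosiglitazone library of replicate 1. Same-numbered WT replicates were higher with the drug in 3 of 3 cases on rescaled values and in 2 in the deposited TPM.

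Lower levels with the drug were seen for uc007gnr.1 and uc007hda.1. The level of uc007gnr.1 in KO was 586.9, 629.2, 688.6 and 786.6 TPM with DMSO and 489.9, 527.5, 503.8 and 682.3 TPM with rosiglitazone, overlapping through the replicate 4 library of KO rosiglitazone. Its log2 fold change was -0.25 ± 0.10 (SE), with limma's adjusted p = 0.934. In WT it stood at 689.9, 764.7 and 790.5 TPM with DMSO and 611.8, 576.3 and 480.6 TPM with rosiglitazone, a log2 difference of -0.40. It was lower with the drug in 3 of 3 WT and 4 of 4 KO cases of the same replicate number.

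The level of uc007hda.1 in KO was 973.7, 630.5, 841.9 and 842.5 TPM with DMSO and 914.4, 186.3, 326.3 and 595.5 TPM with rosiglitazone. All but the first rosiglitazone library lay below the DMSO libraries. The log2 fold change was -0.88 ± 0.42 (SE), with limma's adjusted p = 0.934, and ranged from -1.29 to -0.46 when single libraries were left out. The value of -0.46 was that without the KO rosiglitazone library of replicate 2, and -1.29 that without replicate 1. In WT the transcript had 487, 849.3 and 884.1 TPM with DMSO and 264.5, 291.1 and 521.3 TPM with rosiglitazone, a log2 difference of -1.03.

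**Figure D3:**
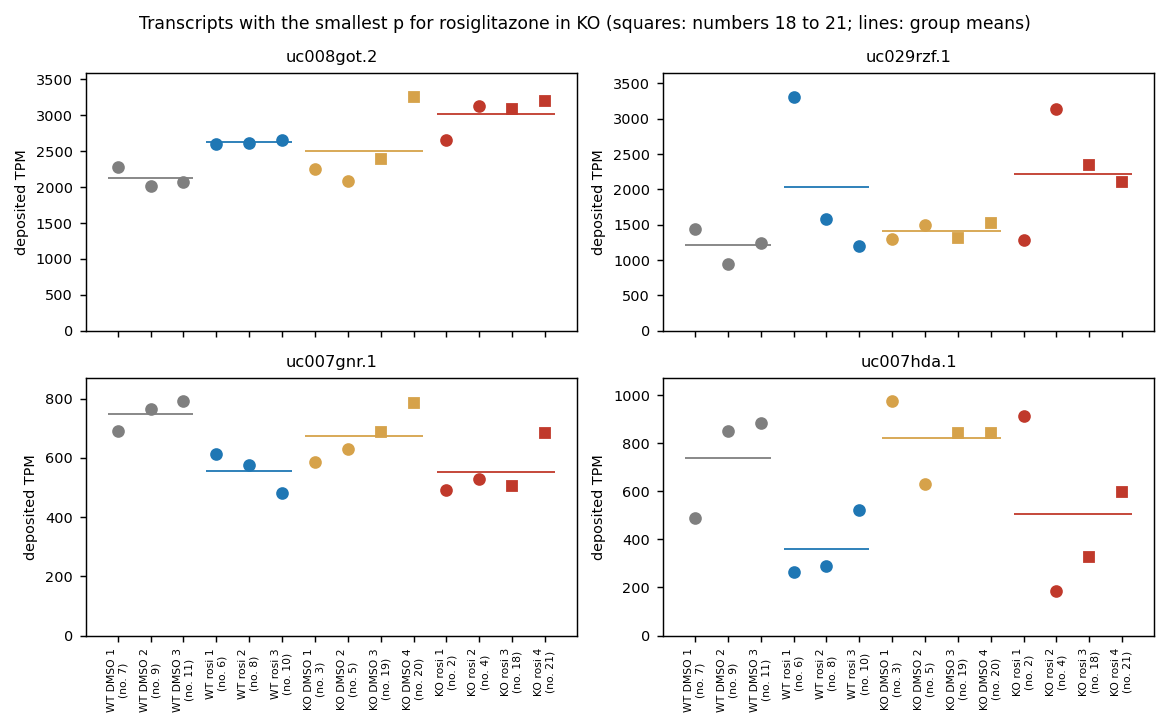
Deposited TPM (linear axis from 0) in every library of the 4 abundant transcripts with the smallest p for rosiglitazone in KO, with 1 point per library, squares for sample numbers 18 to 21 and a line at each group mean. The KO groups overlap in all 4 panels on this scale, in uc008got.2 through the KO DMSO library of replicate 4 at 3259 TPM.

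KO was compared with WT under rosiglitazone to see how arteries of both genotypes differed in the presence of the drug. None of the 89 passed limma's test (0 of 89 at an adjusted p under 0.05, against 10 of 34024, 0.0294%), and 0 of the 89 had an unadjusted p under 0.05, against 3.72% of all tested. The median log2 fold change was -0.02 over the 89 and 0.01 over all tested, and the values ran from -1.28 to 0.30. An absolute log2 fold change under 0.25 was found for 82 of the 89 (92.1%), against 63.5% of all tested, and 83 had a 95% interval within 2-fold either way. In KO 30 of the 89 were higher and 59 lower, while 51.8% of all tested transcripts were higher. The direction of this split turned to 58 higher and 31 lower in the deposited TPM, and was 25 to 64 with median-of-ratios scaling and 36 to 53 with quantile normalization.

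The members of smallest p were far from the threshold. For uc007xac.2 the level was 519.7, 495.8 and 572.3 TPM in WT rosiglitazone and 586, 565.5, 630.7 and 744.5 TPM in KO rosiglitazone, with a log2 fold change of 0.21 ± 0.10 (SE) and limma's adjusted p = 1. The groups of uc007xac.2 overlapped by 1 library in the deposited TPM, and the fold change was 0.11 without the libraries numbered 18 to 21. For uc009bhk.1 the level was 410.8, 472.1 and 447.8 TPM in WT rosiglitazone and 473.9, 502.6, 528.2 and 675 TPM in KO rosiglitazone. All KO libraries of uc009bhk.1 lay above the WT libraries in the deposited TPM, and its log2 fold change on rescaled values was 0.24 ± 0.12 (SE, limma's adjusted p = 1), or 0.12 without the libraries numbered 18 to 21.

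On the lower side, uc008ikb.2 had 2509, 2656 and 2721 TPM in WT rosiglitazone and 2310, 2640, 2541 and 2424 TPM in KO rosiglitazone, with a log2 fold change of -0.13 ± 0.09 (SE) and limma's adjusted p = 1. Its groups overlapped, and the value was -0.07 without the KO rosiglitazone library of replicate 4. The largest negative value, -1.28 ± 0.90 (SE, limma's adjusted p = 1), was that of uc009avm.1, which was -0.57 without the KO rosiglitazone library of replicate 3 and turned to 0.17 without the libraries numbered 18 to 21. On rescaled values 1 of the 89, uc008got.2, had every KO rosiglitazone library above every WT rosiglitazone library (2.2% of all tested did), and 0 of the 89 had every library below (2.08% of all tested). In the deposited TPM every KO library was above for 2 of the 89, uc008got.2 and uc009bhk.1 (2.16% of all tested), and below for 0 (1.52%).

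**Figure D4:**
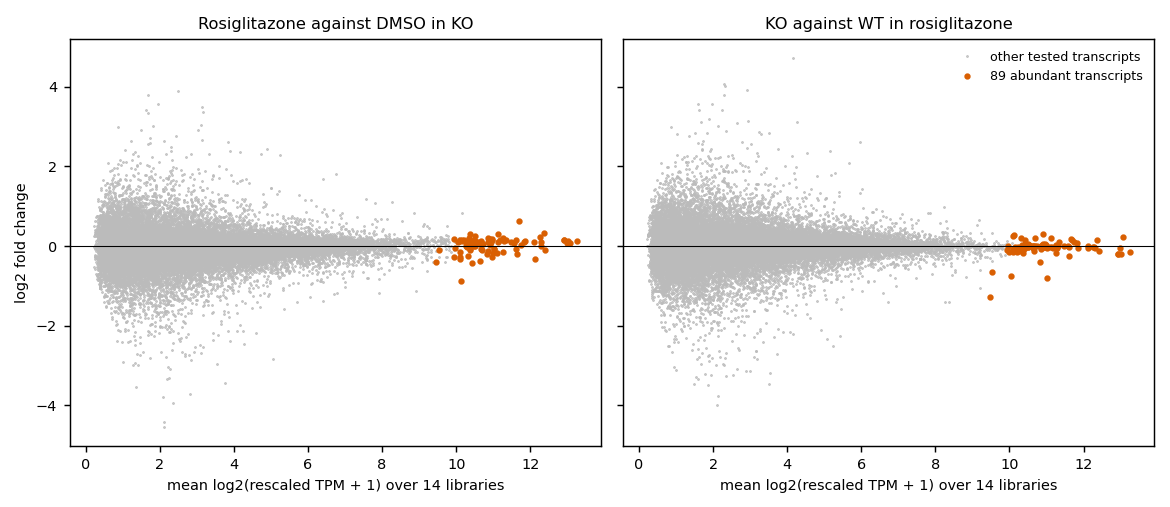
Log2 fold change against mean rescaled log2 level for rosiglitazone in KO and for KO against WT under rosiglitazone, with the 89 transcripts over all other tested transcripts. Most of the 89 lie near 0 at the right of each panel, and the lowest points reach -0.88 for the drug and -1.28 for the genotype.

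The other comparisons use the WT DMSO libraries and are described without a test. For rosiglitazone in WT the median log2 fold change of the 89 was 0.03, with a range of -1.03 for uc007hda.1 to 0.66 for uc029rzf.1, the same transcripts that lay farthest out in KO at -0.88 and 0.63. For KO against WT in DMSO the median was -0.06 and the range -1.31 for uc008yki.2 to 0.36 for uc009jnw.1. The value of uc008yki.2 was -0.61 without the KO DMSO library of replicate 4.

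The level of uc009jnw.1 with DMSO was 1226, 1361 and 1703 TPM in WT and 1587, 1809, 1659 and 2666 TPM in KO. With rosiglitazone it was 1359, 1211 and 1520 TPM in WT and 1326, 1655, 1290 and 2200 TPM in KO. The replicate 4 libraries were the highest of KO in both treatments, and without them the log2 difference between KO and WT in DMSO was 0.25.

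The interaction is the drug difference in KO minus that in WT. Its values ran from -0.18 for uc009jnw.1 to 0.56 for uc008yki.2, with a median of 0.04 against -0.01 over all tested. Without the KO DMSO library of replicate 4 the value of uc008yki.2 turned to -0.14 and that of uc009jnw.1 was -0.071, and single libraries moved the latter between -0.29 and -0.071.

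The most uneven members of the 89 followed the sample numbers within KO. KO libraries numbered 18 to 21 were therefore compared with those numbered 2 to 5, both treatments averaged, a comparison chosen after the values had been seen. It was repeated without single KO libraries, but not without both replicate 4 libraries together. All libraries were taken as separate units, with no replicate block. If same-numbered libraries share a source, which the labels do not state, the p-values of this comparison could be too small. By limma's adjusted p 4 of the 89 passed, all lower in 18 to 21, against 251 of 34024 tested transcripts in either direction (0.738%) and 168 lower ones (0.494%). At an unadjusted p under 0.05 there were 17 of the 89, against 13.4% of all tested. The sources used here do not say what the sample numbers mean.

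The largest fall was that of uc009avm.1. Its level was 735.6, 684.2, 633 and 494.4 TPM in the KO libraries numbered 2 to 5, DMSO libraries first, and 73.44, 176.3, 44.5 and 135.8 TPM in those numbered 18 to 21. WT libraries had 475.6, 715.2 and 639.3 TPM with DMSO and 365.1, 506.7 and 647 TPM with rosiglitazone. The KO libraries numbered 18 to 21 thus lay below all the other 10, and the fall was 6.92-fold (log2 -2.79 ± 0.32, SE; limma's adjusted p = 0.0048).

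For uc008yki.2 the level was 946.4, 1117, 631 and 1170 TPM in the KO libraries numbered 2 to 5 and 191.4, 99.42, 238.7 and 134.6 TPM in those numbered 18 to 21, in the same order. WT libraries had 855.3, 743.1 and 1141 TPM with DMSO and 792.5, 593.8 and 563.4 TPM with rosiglitazone. The higher-numbered libraries were again the lowest 4 of the 14, and the fall was 6.19-fold (log2 -2.63 ± 0.30, SE; limma's adjusted p = 0.00496).

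For uc007izh.3 the level was 1765, 1662, 1501 and 1411 TPM in the KO libraries numbered 2 to 5 and 372.2, 424.1, 375 and 410.6 TPM in those numbered 18 to 21. WT libraries had 1328, 1780 and 1699 TPM with DMSO and 1078, 1178 and 1636 TPM with rosiglitazone. The 4 low values lay close together, and the fall of 4.15-fold had the smallest p of the 89 (log2 -2.05 ± 0.13, SE; limma's adjusted p = 0.000239).

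For uc007awq.2 the level was 573.1, 630.5, 525.2 and 383.8 TPM in the KO libraries numbered 2 to 5 and 151.7, 164.3, 121.2 and 239.3 TPM in those numbered 18 to 21. WT libraries had 412.2, 667 and 558.4 TPM with DMSO and 315.9, 396.2 and 607.9 TPM with rosiglitazone. The groups did not overlap, and the fall was 3.28-fold (log2 -1.71 ± 0.24, SE; limma's adjusted p = 0.0147). This call was lost when the KO DMSO library of replicate 1, 2 or 4 was left out, with limma's adjusted p of 0.0514, 0.0536 and 0.0554. The calls of the other 3 were kept under all 17 settings tried. These settings reuse the libraries in which the falls were first seen, and none used a replicate block. They show how the calls depend on processing and are no independent support.

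**Figure D5:**
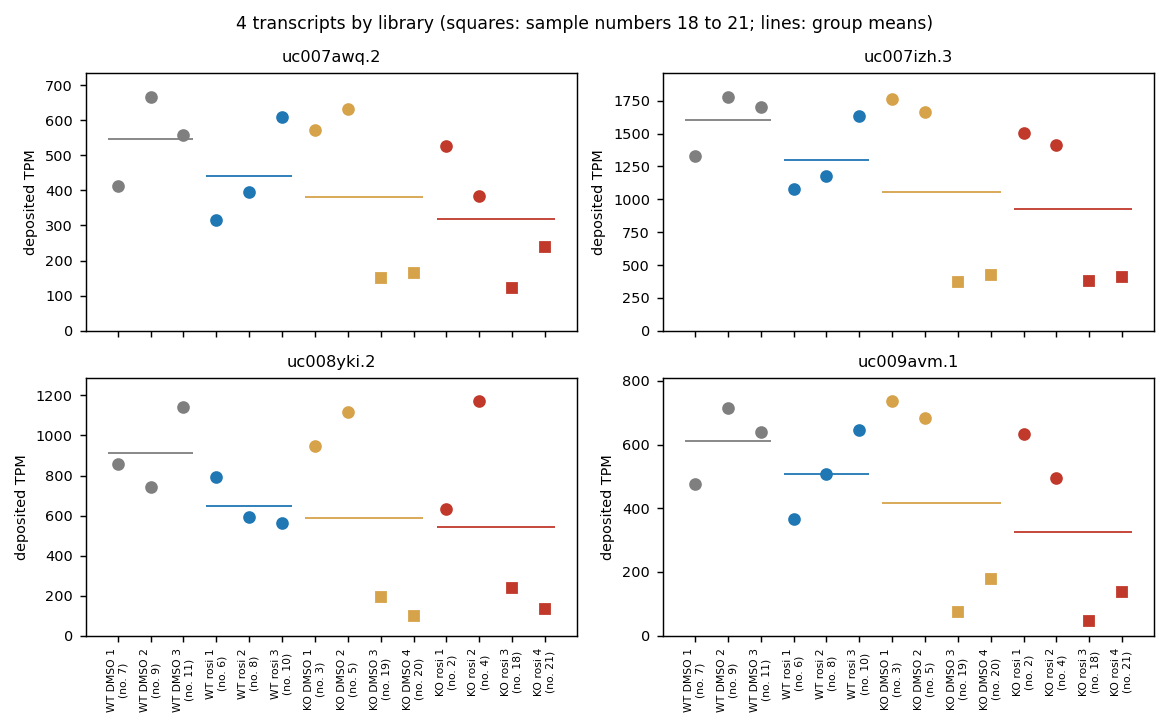
Deposited TPM (linear axis from 0) in every library of the 4 abundant transcripts that fell in the KO libraries numbered 18 to 21, with 1 point per library, squares for numbers 18 to 21 and a line at each group mean. In each panel the 4 squares lie below all 10 round points.

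These 4 transcripts held the lowest genotype values of the 89. KO against WT, their log2 fold changes were -0.66 to -1.28 under rosiglitazone (limma's adjusted p = 1 for each) and -0.85 to -1.31 in DMSO. Without the libraries numbered 18 to 21 they were 0.07 to 0.40 under rosiglitazone and 0.08 to 0.21 in DMSO. Over the 14 libraries their rescaled log2 levels correlated with r from 0.80 to 0.96, a description that rests on the low libraries for the pairs with uc008yki.2. Over the 10 libraries numbered 2 to 11, uc007awq.2, uc007izh.3 and uc009avm.1 still correlated with r of 0.952 to 0.959, whereas uc008yki.2 had r of -0.12 to 0.07 with the other 3.

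Beyond these 4, on rescaled values, all KO libraries numbered 18 to 21 lay below all those numbered 2 to 5 for 6 more of the 89, 10 in all (11.2%, against 2.85% of all tested transcripts). They lay above for 2 (2.25%, against 5.29%), uc007xac.2 and uc009bhk.1. In the deposited TPM 7 were below, the 4 among them (7.87%, against 1.92%), and 0 above (against 4.63%). Over all 89, 26 were higher and 63 lower in 18 to 21, while 62.5% of all tested transcripts were higher. For the 89 this split was 39 to 50 in the deposited TPM, 14 to 75 with median-of-ratios scaling and 50 to 39 with quantile normalization. The direction of the whole set thus depended on the scaling, while the 4 large falls were found with all 4 scalings.

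The replicate 4 libraries were also compared alone with the other 12. On rescaled values both KO libraries of replicate 4 were below all the other 12 for 19 of the 89 (21.3%, against 2.06% of all tested) and above them for 4 (4.49%, against 10.6%). In the deposited TPM the balance turned round, with 6 below (6.74%, against 0.644% of all tested) and 9 above (10.1%, against 22.6%). The 19 include uc009vez.1, uc009vfa.1 and uc009vfc.1 of the stretch beside the dominant transcripts, at log2 differences of -0.57, -0.74 and -0.71, and these 3 were also among the 6. The entry uc007ams.1, identical to uc009vfa.1, is also in both counts, so the same values enter each count more than once. The 4 above were uc012ath.2, uc009jnw.1, uc007rus.2 and uc008gfj.2, at 0.84, 0.52, 0.44 and 0.29, and all 4 were among the 9. These are the libraries in which the dominant transcripts held least, 43.2% and 46.0%, and the part of that in these differences was not tested.

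The level of uc012ath.2 was 8883 and 6880 TPM in the KO libraries of replicate 4, DMSO and rosiglitazone. In the other 12 libraries it was 3513, 4277 and 3623 TPM in WT DMSO, 4053, 2456 and 5379 in WT rosiglitazone, 4144, 3022 and 3530 in KO DMSO, and 3732, 4433 and 3735 in KO rosiglitazone. It was thus one of the 3 members above 5000 TPM in some library.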

How the data were processed

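RNA-seq of 14 mouse carotid artery libraries was used. The authors deposited 1 table of TPM values for 63244 transcripts. The submitters' processing notes list sleuth, kallisto and FastQC, with mm10 and GRCm38 as builds, and give no versions or roles. Such estimates divide shared reads among similar transcripts, and TPM keeps no depth. Each column was assigned to its sample through the number in its header, which the labels repeat.

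Transcripts with a mean over 14 libraries above 5000 TPM were removed and each library was rescaled to 1000000. Transcripts of at least 1 rescaled TPM in at least 3 libraries (34024, all 89 members among them) were tested as log2(rescaled TPM + 1) with limma 3.58.1 in R 4.3.3, with 1 mean per group, a variance trend and two-sided moderated tests. P-values were Benjamini-Hochberg adjusted over all 34024, and 0.05 was the threshold. The pseudocount slightly understates fold changes. The tests were checked on simulated data. Python 3.11.15 and matplotlib 3.10.9 made the plots.

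The members, the comparisons and the transcripts to be named were chosen with earlier results of these data known. Named were the highest and lowest members, those of smallest p or largest change per comparison, the steadiest and most variable, and the closest profile. Alternatives covered scaling, pseudocount, filter, variance model, replicate block, sample numbers and left-out libraries. Other variable members, and those followed over sample numbers or in the replicate 4 libraries, were chosen after their values were seen.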

Additional observations from a re-analysis of the deposited data

Results flagged for a closer look

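Among the named members 42 sets of 4 KO libraries were examined for a single library far from the others, and 1 stood out. For uc008ikb.2 the KO DMSO library of replicate 1 had a rescaled level of 5933, against 5203, 5317 and 5310 in replicates 2 to 4. Its gap to the nearest library was 0.843 of the group's range, above Dixon's 95% critical value for 4 samples. Chance alone gives about 1 such case in 20 sets.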

How the results depend on the processing

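For rosiglitazone in KO and for KO against WT under rosiglitazone limma called 0 of the 89 under every alternative run, and the lowest adjusted p of any member in any setting was 0.379 and 0.961. With the replicate number as a block, fixed or random, the counts were also 0. The block was not used elsewhere, since not every pair of same-numbered libraries deviated together with r over 0.1, which held in 2 of 7 drug pairs (0.0553 to 0.179) and 0 of 6 genotype pairs (-0.117 to 0.0424). All 7 drug pairs had a positive r and 10 of 14 libraries correlated best with their own number. Same-numbered DMSO and rosiglitazone libraries of a genotype also carry adjacent sample numbers. Both are hints of pairing, which the labels do not state. The drug comparisons and the comparison of sample numbers above took the libraries as unpaired. Of 496 alternative fold changes of named members 488 kept their direction and side of the threshold. Outside the comparison of sample numbers limma's adjusted p of a member was never under 0.379. Keeping the side of the threshold was there nearly fixed in advance. KO against WT reversed for uc009avm.1 under rosiglitazone (0.12 with the number range as covariate, 0.17 without libraries 18 to 21) and for uc008yki.2 in DMSO (0.0045 and 0.16), and the interaction of uc008yki.2 reversed to -0.14 without the KO DMSO library of replicate 4 and reached 1.12 without the KO rosiglitazone library of replicate 4. The count of 4 members lower in libraries 18 to 21 was 3 to 4 with single libraries left out, 5 with median-of-ratios scaling and 6 with a filter of 10 TPM.

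The mean share moved to 22.4%, 23.1%, 21.7% and 22.55% (WT DMSO, WT rosiglitazone, KO DMSO, KO rosiglitazone) after rescaling, by construction, and to 7.00%, 7.21%, 7.08% and 7.18% for members of 1000 to 5000 TPM. In WT DMSO it was 10.7% with members chosen over 14 libraries. With a single entry of the identical pair kept it was 10.45% in WT DMSO and 10.5% in WT rosiglitazone. Leaving out single libraries gave 10.83% to 10.85%, 10.82% to 11.11%, 10.76% to 11.23% and 10.7% to 11.19%. The median coefficient of variation was 11.99%, 15.6% and 15.6% in WT DMSO, KO DMSO and KO rosiglitazone with median-of-ratios scaling, and in KO DMSO 12.2% after rescaling and 16.2% for members of 1000 to 5000 TPM. With single libraries left out it ranged from 4.94% to 8.43%, 7.66% to 12.9%, 11.7% to 13.4% and 11.35% to 14.7%. No fit of the interaction on the groups of the comparison alone was made, since it uses all groups. The cause of these moves was not tested, and depth, which limits the precision, is unknown.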
